A study of Mus musculus with 7 samples.

Results

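Proximal T cell receptor signalling was followed through 9 genes, Lck, Zap70, Lat, Themis, Trat1, Kcnn4, Camk4, Prkcq and Lcp2, which were taken by gene symbol from the 45777 genes of the deposited table. All 9 were in the table, each as a single protein-coding gene, and all 9 passed the filter on low counts. The libraries were made from mRNA of mouse PBMCs at week 8, in a study of repeated blood collection. PBMCs are a preparation of blood lymphocytes and monocytes meant to be free of most other cells. Each of 7 groups had 1 library. Non was the control, for which the labels give neither a collection route nor a treatment. The collected groups were FV (facial vein), RP (retro-orbital plexus, the vessels behind the eye) and TV (tail vein), each without ibuprofen, Ibu (-), and with it, Ibu (+). Ibuprofen is a cyclooxygenase inhibitor given against pain and inflammation, the subject named in the title. Not given in the sources used here are strain, age and sex, the dose, and whether a library pooled several mice.

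When an antigen engages the T cell receptor, the kinase Lck phosphorylates the CD3 and zeta chains of the receptor, and Zap70 binds there and is activated in turn. Zap70 phosphorylates the membrane adaptor Lat and the cytosolic adaptor SLP-76, the product of Lcp2, and the complex built on them switches on phospholipase C, calcium entry and the theta isoform of protein kinase C, the product of Prkcq. Most of these genes are known as T cell genes, but platelets also use Lcp2, Lat and Prkcq downstream of their collagen receptor, myeloid and mast cells use Lcp2, and Kcnn4 encodes the potassium channel known in red cells as the Gardos channel.

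The values below are counts scaled to a common library size (CPM) scaled by TMM, a factor that sets the bulk of genes equal between libraries. Total counts ran from 47903611 in FV Ibu (-) to 63801032 in RP Ibu (-), and the TMM factor ran from 0.553 in TV Ibu (-) to 1.31 in FV Ibu (+). The 20 T cell markers, none of them a member, were all measured, and their summed level ran from 625 CPM in TV Ibu (-) to 1558 CPM in RP Ibu (+), so the T cells that the PBMC label implies were present in every library. Red cell RNA was plentiful in every library too. The 15 erythroid markers, globin genes among them, summed to between 363540 CPM in FV Ibu (+) and 1323900 CPM in TV Ibu (-), against 537690 CPM in Non. A low TMM factor raises the CPM of a library, so the sum in TV Ibu (-) is not a share of its counts. The members had 156 to 6888 counts per library. With 1 library a group, a 95% Poisson interval covers counting error only, and every p-value reflects only how far these libraries spread, possibly for technical reasons. In bulk RNA, fewer T cells and less of a transcript per T cell cannot be told apart.

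Upstream sequence is shown for 4 members. These are Lck, which has a pair of known promoters, Kcnn4 and Trat1, which had the largest ibuprofen differences of the 9, and Lcp2, which had the smallest. Each is the 250 bases before an annotated start in RefSeq, build GRCm38.p6 (the assembly called mm10), printed 5′ to 3′ on the strand of the gene. Capitals mark matches, on either strand, to 7 motifs of 6 letters: the letters GGAAGT for ETS factors, TGTGGT for RUNX factors, CTTTGA for TCF and LEF factors, AGATAA for the GATA family, the letters GGAAAA for NFAT factors, the letters CAGCTG for an E-box and the letters GGGCGG for Sp1.
Lck, distal start, chr4:129573642-129573891, minus strand: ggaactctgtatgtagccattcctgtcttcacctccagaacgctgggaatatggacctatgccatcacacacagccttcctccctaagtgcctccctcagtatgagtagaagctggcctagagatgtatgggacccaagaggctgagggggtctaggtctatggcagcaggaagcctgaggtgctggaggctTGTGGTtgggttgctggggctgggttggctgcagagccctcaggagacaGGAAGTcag
Lck, proximal start, chr4:129558373-129558622, minus strand: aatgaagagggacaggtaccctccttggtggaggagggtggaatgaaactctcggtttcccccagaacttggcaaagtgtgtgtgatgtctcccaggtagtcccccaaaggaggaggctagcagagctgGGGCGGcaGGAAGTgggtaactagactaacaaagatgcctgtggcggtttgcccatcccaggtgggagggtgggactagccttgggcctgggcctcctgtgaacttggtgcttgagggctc
Kcnn4, chr7:24370013-24370262, plus strand: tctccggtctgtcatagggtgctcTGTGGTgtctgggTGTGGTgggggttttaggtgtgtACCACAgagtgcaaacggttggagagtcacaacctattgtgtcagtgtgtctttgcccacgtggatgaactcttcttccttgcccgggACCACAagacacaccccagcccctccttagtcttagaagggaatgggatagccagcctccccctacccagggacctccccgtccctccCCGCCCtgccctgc
Trat1, chr16:48772063-48772312, minus strand: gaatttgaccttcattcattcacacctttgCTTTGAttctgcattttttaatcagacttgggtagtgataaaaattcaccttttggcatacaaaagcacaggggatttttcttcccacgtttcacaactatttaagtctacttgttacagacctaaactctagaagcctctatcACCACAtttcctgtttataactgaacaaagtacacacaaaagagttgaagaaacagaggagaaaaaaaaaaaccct
Lcp2, chr11:34046678-34046927, plus strand: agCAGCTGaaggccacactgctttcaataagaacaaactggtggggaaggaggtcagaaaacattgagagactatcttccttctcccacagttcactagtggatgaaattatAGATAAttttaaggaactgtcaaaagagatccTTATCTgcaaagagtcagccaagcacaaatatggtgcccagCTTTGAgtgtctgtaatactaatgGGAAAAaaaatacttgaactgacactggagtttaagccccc

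Upstream of the distal Lck start, RUNX letters lay at -58 and ETS letters at -9, counted to the first base of the match with the base before the start as -1. Upstream of the proximal start, Sp1 letters lay at -121 and ETS letters at -113. Mature T cells are known to use mainly the distal promoter and thymocytes the proximal one, but the table holds a single Lck count, so the promoters could not be separated. Kcnn4 carried RUNX letters at 4 positions, -226, -213, -190 and -102, and Sp1 letters at -14. This Kcnn4 window lies inside the span that the gene table gives for Kcnn4, from 24369826 to 24385212. The proximal Lck window likewise lies inside the span given for Lck. Trat1 carried RUNX letters at -76 and TCF and LEF letters at -220. Its RefSeq start lies inside the span that the gene table gives for Trat1, and the 30 bases after it are in no GENCODE M21 transcript. Whether these cells use that start was not tested. Lcp2 carried no RUNX letters in this window and had GATA letters at -138 and -106, besides 1 match each to E-box, TCF and LEF, and NFAT.

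RefSeq sequence was at hand for 8 of the 9 members, with 12 starts, and the motifs are common. RUNX letters were in 4 of the 12 member windows, of 4 genes, and in 14% of all 32851 promoter windows. Besides Lcp2, the windows of Lat, Themis and Prkcq, not printed here, held no RUNX letters. Those of Lat and Themis matched none of the 7 motifs. ETS letters were in 3 of the 12 (2 genes) and 19.7% of all windows, TCF and LEF letters in 3 and 13.8%, NFAT letters in 2 and 20.4%, and Sp1 letters in 3 and 32.7%. GATA letters were in 1 of the 12, that of Lcp2, and 9.99% of all windows, and E-box letters in 1, again that of Lcp2, and 13%. None of the 7 motifs overlapped another in the windows printed. A match describes letters only.

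Per transcript length, in the deposited TPM (a length-scaled share of all transcripts) averaged over the 7 libraries, Lck (38.4) and Lat (36.7) were the most abundant members. Prkcq (15.5) and Lcp2 (15.4) followed, then Zap70 (8.23), Kcnn4 (5.17), Themis (3.12), Trat1 (2.67) and Camk4 (0.637). The most and the least abundant member were thus both kinases, and the scaffold Lat was close to Lck.

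The tyrosine kinases come first in the pathway. Lck, the Src-family kinase bound to the coreceptors CD4 and CD8, was at 111 CPM in Non. Without ibuprofen it was at 69.9, 87.9 and 51.8 CPM in FV, RP and TV, and with ibuprofen at 83.1, 119 and 113 CPM. Every collected library without ibuprofen was therefore below Non, and within each route the library with ibuprofen was the higher, although FV Ibu (+) stayed below RP Ibu (-). In the order of the Lck levels, only the neighbours Non and TV Ibu (+) had overlapping Poisson intervals.

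Zap70, the kinase recruited to the phosphorylated receptor chains, was at 25.6 CPM in Non, at 15.99, 18.8 and 9.74 CPM in FV, RP and TV without ibuprofen, and at 19.0, 27.7 and 23.9 CPM with it. The order was close to that of Lck, with TV Ibu (-) lowest and RP Ibu (+) highest. The highest level was 2.84 times the lowest for Zap70 and 2.31 times for Lck.

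Themis, a T cell protein that binds Grb2 and the phosphatase SHP-1, was at 22.6 CPM in Non, at 12.3, 17.9 and 8.52 CPM without ibuprofen in the same route order, and at 15.9, 25.1 and 19.4 CPM with it. Trat1, the transmembrane adaptor TRIM that associates with the receptor complex, was at 16.03 CPM in Non, at 8.43, 11.1 and 9.26 CPM without ibuprofen, and at 15.3, 19.8 and 17.0 CPM with it. The 3 Trat1 libraries with ibuprofen all lay above the 3 without, whereas for Themis FV Ibu (+) lay below RP Ibu (-), with overlapping Poisson intervals. The lowest Trat1 level was in FV Ibu (-), not in TV Ibu (-), although those 2 intervals overlapped.

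The scaffold adaptors parted from each other. Lat, the membrane scaffold, was at 64.4 CPM in Non, its highest library, at 37.5, 48.1 and 40.2 CPM in FV, RP and TV without ibuprofen, and at 52.3, 62.5 and 62.1 CPM with it. Lcp2, whose product SLP-76 is tethered to Lat by the adaptor Gads, was at 61.8 CPM in Non, at 64.8, 59.2 and 70.8 CPM without ibuprofen, and at 68.2, 55.7 and 62.2 CPM with it. Lat without ibuprofen lay below Lat with ibuprofen in every library. For Lcp2 the groups overlapped, the TV library without ibuprofen was the highest, and all 6 pairs of neighbours in its order had overlapping Poisson intervals. The interval of TV Ibu (-) still lay above those of TV Ibu (+) and Non.

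The downstream kinases and the channel follow. Prkcq, protein kinase C theta, was at 59.9 CPM in Non, at 48.4, 49.2 and 54.7 CPM without ibuprofen, and at 62.4, 65.6 and 62.3 CPM with it. The ibuprofen groups did not overlap, but the highest Prkcq level was only 1.36 times the lowest, against 1.27 times for Lcp2 and 1.72 times for Lat. Kcnn4, the calcium-activated potassium channel that sustains calcium entry, was at 13.97 CPM in Non, at 7.43, 9.92 and 6.75 CPM without ibuprofen, and at 13.2, 16.6 and 16.1 CPM with it. Camk4, a nuclear calcium and calmodulin-dependent kinase, was at 9.79 CPM in Non, at 5.07, 9.36 and 4.77 CPM without ibuprofen, and at 8.32, 14.6 and 9.24 CPM with it. Kcnn4 with ibuprofen lay above Kcnn4 without in every library. Camk4 had the widest range of the 9, 3.06 times, and its RP libraries stood high, RP Ibu (-) being within counting error of Non.

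**Figure D1:**
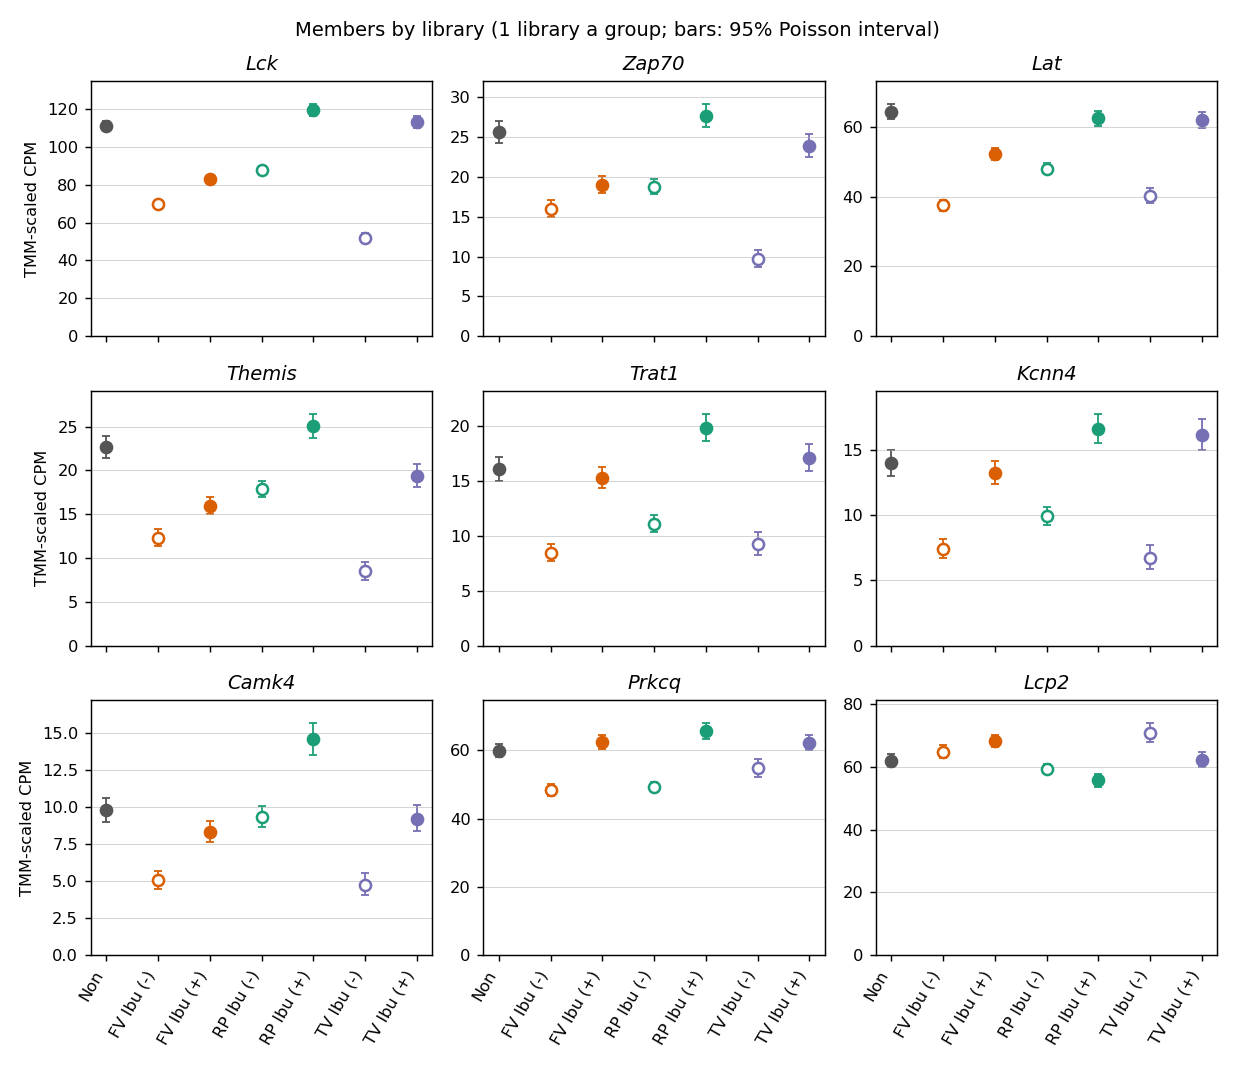
TMM-scaled CPM (vertical axis, from 0) of each of the 9 genes in each of the 7 libraries (horizontal axis). Filled points are Non and the libraries with ibuprofen, open points those without, and bars are 95% Poisson intervals. The open points of every gene except Lcp2 lie below Non, while Lcp2 runs only from 55.7 to 70.8 CPM.

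Across the 9 genes, TV Ibu (-) was the lowest library for 5, FV Ibu (-) and TV Ibu (-) were the lowest 2 libraries for 7, and RP Ibu (+) was the highest for 7. Of the 6 pairs of neighbours in each order of levels, 3 had overlapping Poisson intervals for Zap70, Lat, Themis, Trat1 and Kcnn4, and 4 for Camk4 and Prkcq.

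The comparison of libraries with and without ibuprofen asks how blood gene expression differed with the drug during serial collection. Over the 3 routes, 8 of 9 members were higher with ibuprofen in every route, a pattern that 20% of the 11774 genes tested shared, and the exception was Lcp2. On the deposited TPM scale Lat and Prkcq were lower with ibuprofen in RP. No member passed the test. In edgeR's quasi-likelihood test with route as a term and Benjamini-Hochberg adjustment, 0 genes were called in either direction at an adjusted p under 0.05 (0.0% of genes), and 1244 genes had an unadjusted p under 0.05. At that unadjusted p, 7 of 9 members were higher, against 4.67% of all genes, and 0 were lower. Of these 7, Lat, Trat1 and Kcnn4 stayed under it in all 13 alternative runs, and Lck, Zap70, Themis and Camk4 did not. The median log2 difference of the members was 0.66, and that of all genes was -0.0042. Both DESeq2 and limma-voom were also run, and they called 110 and 1 genes. DESeq2 called Trat1 (adjusted p = 0.00726) and Kcnn4 (adjusted p = 0.011), and no other member was called under any alternative of this comparison.

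Kcnn4 had the largest ibuprofen difference, 0.92 ± 0.15 on the log2 scale (SE, 6 libraries; adjusted p = 0.374, edgeR). Trat1 followed at 0.84 ± 0.12 (adjusted p = 0.374, edgeR), and its differences in the order FV, RP, TV were nearly equal, 0.85, 0.84 and 0.88. Camk4 was at 0.75 ± 0.13 (adjusted p = 0.374, edgeR), with 0.71, 0.64 and 0.95 by route. By unadjusted p these 3 genes ranked 16, 10 and 30 among the 11774 genes, with unadjusted edgeR p-values of 0.000884, 0.000464 and 0.0016. The level of each was higher in 3 of 3 routes.

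For Zap70, Lck and Themis the value varied more between routes. Zap70 was 0.68 ± 0.21 higher on the log2 scale (adjusted p = 0.404, edgeR), with 0.25, 0.56 and 1.29 in that order. Lck was 0.59 ± 0.19 higher (adjusted p = 0.417, edgeR), with 0.25, 0.44 and 1.13, and Themis was 0.66 ± 0.18 higher (adjusted p = 0.388, edgeR), with 0.37, 0.49 and 1.19. For these 3 genes the TV difference was the widest. Leaving out TV Ibu (-) lowered the pooled value to 0.32 for Lck, 0.38 for Zap70 and 0.41 for Themis. Whether the ibuprofen difference itself varied between routes could not be tested with 1 library a group.

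Lat was 0.48 ± 0.12 higher with ibuprofen (adjusted p = 0.374, edgeR), with 0.48, 0.38 and 0.63 by route, and 0.40 to 0.52 when single libraries were left out. Prkcq was 0.31 ± 0.13 higher (adjusted p = 0.476, edgeR), and its TV difference of 0.19 was its smallest, below 0.37 in FV and 0.41 in RP. Lcp2 stood at -0.09 ± 0.13 (adjusted p = 0.817, edgeR), with 0.07, -0.09 and -0.19. In 5 members, Zap70, Lat, Trat1, Kcnn4 and Prkcq, each library with ibuprofen was above each collected library without it, a pattern held by 6.45% of the 11774 genes, although for Zap70 the Poisson intervals of FV Ibu (+) and RP Ibu (-) overlapped.

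**Figure D2:**
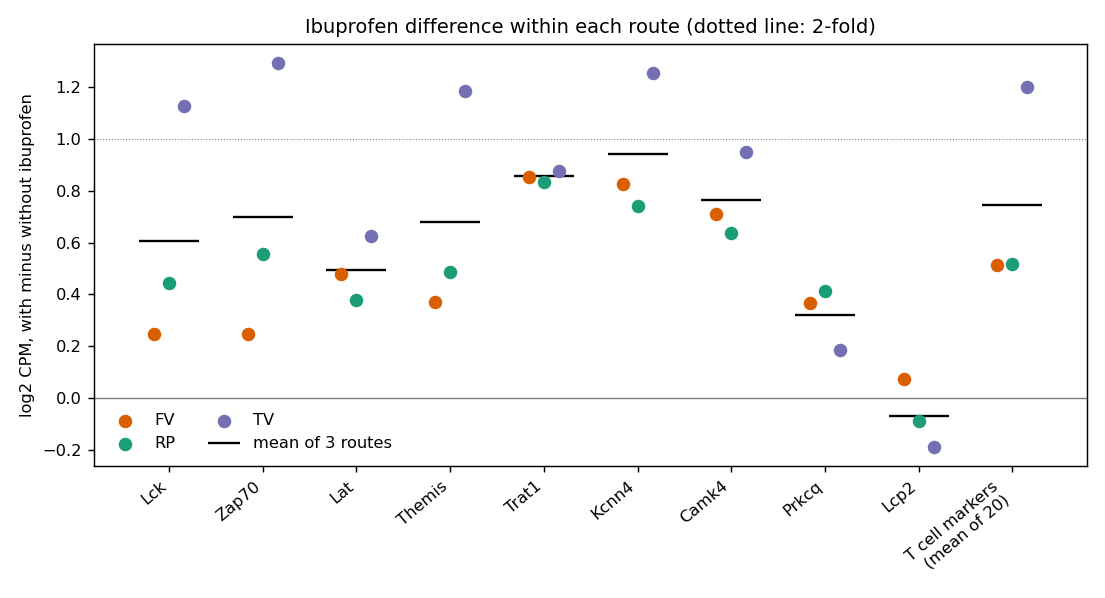
Difference in log2 CPM between the library with and the library without ibuprofen (vertical axis) for each of the 9 genes and for the mean of 20 T cell markers (horizontal axis). Points are the FV, RP and TV routes, lines the mean over 3 routes, and the dotted line marks 2-fold. Lck, Zap70, Themis and Kcnn4 exceed 2-fold in TV, Trat1 is nearly equal in the 3 routes, and Lcp2 lies around 0.

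Within single routes, a member was counted as apart when its level differed at least 2-fold at a mean of at least 10 CPM, without a test. In TV, 4 members were at least 2-fold higher with ibuprofen, Zap70 (2.45-fold), Kcnn4 (2.38-fold), Themis (2.27-fold) and Lck (2.18-fold), where 1.17% of 6069 genes were. In FV and in RP, 0 members were, where 0.513% and 0.347% of genes were, and the largest difference was that of Trat1 in both. On the deposited TPM scale, which globin transcripts from red cells pull on, the median of all genes itself shifted by 0.30, -0.48 and 0.67 in the order FV, RP, TV. Lat and Prkcq in RP, and Lcp2 in TV, took the opposite sign on that scale, and no member did once the shift of the median was subtracted.

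The comparison of collected mice with Non asks what serial collection went with. Without ibuprofen, 8 of 9 members were below Non in all 3 routes, which 21.0% of the 11804 genes tested were, and Lcp2 was again the exception. On the TPM scale Camk4 was above Non in RP. In edgeR's quasi-likelihood test of the mean of the 3 libraries without ibuprofen against Non, 0 genes were called (0.0%), 906 had an unadjusted p under 0.05, and DESeq2 and limma-voom called 17 and 1. At that unadjusted p, 7 of 9 members were lower, against 3.32% of all genes. The median log2 difference of the members was -0.68. The comparison uses the same 3 libraries without ibuprofen as the comparison of ibuprofen, so its values are not independent of those above, and Non is a single library.

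Themis stood at -0.86 ± 0.25 against Non (SE; adjusted p = 0.623, edgeR), Zap70 at -0.82 ± 0.28 and Lck at -0.68 ± 0.26, each with the same adjusted p. Kcnn4 stood at -0.81 ± 0.20, Trat1 at -0.74 ± 0.16, Camk4 at -0.68 ± 0.18 and Lat at -0.62 ± 0.16, again with an adjusted p of 0.623 in edgeR. Prkcq was at -0.23 ± 0.18 (adjusted p = 0.686, edgeR) and Lcp2 at 0.07 ± 0.18 (adjusted p = 0.899, edgeR). Leaving out TV Ibu (-) moved Lck to -0.45 and Zap70 to -0.55. With Non set against all 6 collected libraries, ibuprofen included, the differences were -0.35 for Lck, -0.42 for Zap70, -0.25 for Trat1, -0.26 for Kcnn4 and -0.20 for Camk4.

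By route, the distance from Non without ibuprofen was widest in TV, with a median over the members of -1.03, against -0.78 in FV and -0.34 in RP. In TV Ibu (-), Themis was at -1.40, Zap70 at -1.39, Lck at -1.10 and Kcnn4 at -1.05, and these 4 members were at least 2-fold below Non where 1.3% of 6089 genes were. Camk4, at -1.03, was also more than 2-fold below but under the limit on the mean level. In FV Ibu (-), Camk4 was at -0.94, Trat1 at -0.92, Kcnn4 at -0.91 and Themis at -0.87, and 0 members reached 2-fold, where 1.67% of genes did. In RP Ibu (-) the lowest was Trat1 at -0.53, 0 members reached 2-fold and 0.198% of genes did. The kinases Lck and Zap70 were thus further from Non in TV than in FV, while Trat1 and Lat were further from it in FV. For Trat1 and for Lat, however, the Poisson intervals of FV Ibu (-) and TV Ibu (-) overlapped.

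With ibuprofen the medians were nearer to Non. The median over the members was -0.23, 0.13 and 0.01 by route, and 0 members were at least 2-fold below Non in any of the 3, where 0.356%, 0.182% and 0.132% of genes were. In FV Ibu (+) the furthest below were Themis at -0.50, Zap70 at -0.43 and Lck at -0.42, while Trat1 and Kcnn4 were at -0.07 and -0.08. In RP Ibu (+), 7 of 9 members were above Non, with Camk4 highest at 0.57. In TV Ibu (+) all members lay between -0.22 for Themis and 0.21 for Kcnn4. On the TPM scale the median of all genes was shifted from Non by -1.16 in TV Ibu (-) and by between -0.47 and 0.43 in the other 5 libraries. Between 0 and 5 members took the other sign there, and 0 did relative to that median.

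**Figure D3:**
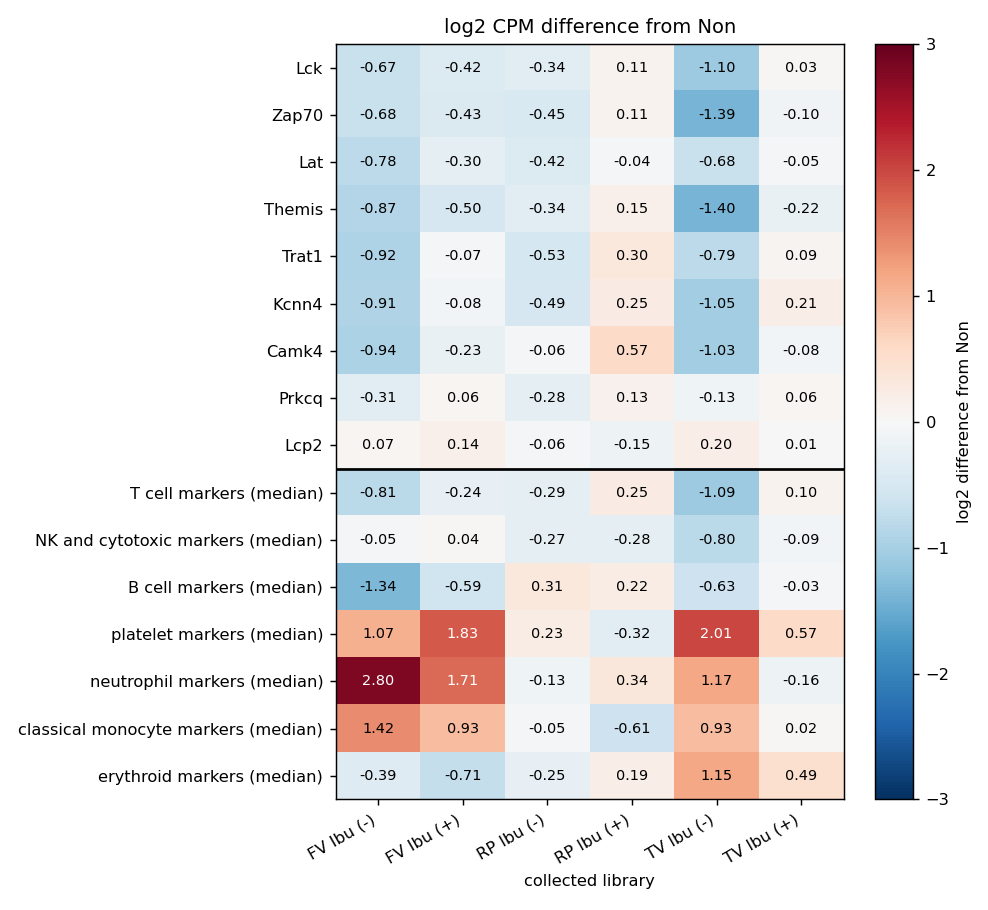
Difference in log2 CPM from Non (colour and printed value) for the 9 genes, above the line, and for the medians of 7 marker lists, below it, in the 6 collected libraries (columns). The T cell marker median runs with most of the 9 genes, from -1.09 in TV Ibu (-) to 0.25 in RP Ibu (+), and Lcp2 stays between -0.15 and 0.20.

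The routes were compared in the same fit over the 6 collected libraries. In edgeR's quasi-likelihood test 0 genes were called for FV against RP (0.0%), 2899 had an unadjusted p under 0.05, and DESeq2 and limma-voom called 1076 and 10. At that unadjusted p, 3 members were lower in FV, Camk4, Themis and Trat1, against 9.5% of genes. Camk4 stood lowest at -0.86 ± 0.16 (adjusted p = 0.092, edgeR), and DESeq2 called it (adjusted p = 0.0148). Themis was at -0.60 ± 0.22 (adjusted p = 0.181, edgeR) and Trat1 at -0.40 ± 0.14 (adjusted p = 0.175, edgeR). Of the markers of other cells, all 14 B cell markers were lower in FV at an unadjusted p under 0.05 (median -1.32), and all 15 platelet and 14 classical monocyte markers were higher (medians 1.59 and 1.48). Their part in the route differences was not tested.

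For TV against RP, edgeR called 0 genes (0.0%), with 1534 at an unadjusted p under 0.05, DESeq2 called 158 and limma-voom 0. The 2 members lower at that unadjusted p, against 3.74% of genes, were Camk4 at -0.79 ± 0.16 and Themis at -0.67 ± 0.23, both with an adjusted p of 0.381 in edgeR. For TV against FV, edgeR called 0 genes (0.0%), with 1186 at an unadjusted p under 0.05, DESeq2 called 318 and limma-voom 5. There 0 members had an unadjusted p under 0.05 in either direction. Of the 11774 genes, 622 were higher and 564 (4.79%) lower at that p. The members lay between -0.14 for Zap70 and 0.21 for Lat. Camk4 was therefore highest in RP whether or not ibuprofen was given, at 9.36 and 14.6 CPM against 4.77 to 9.24 CPM in the other collected libraries, though RP Ibu (-) and TV Ibu (+) were within counting error of each other.

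The members were next set against T cell marker RNA in each library, as the log2 level of a member less the mean log2 level of 20 T cell markers. All 20 markers were higher with ibuprofen in the edgeR fit (median 0.74, 18 at an unadjusted p under 0.05, 0 called), and all 20 were lower without ibuprofen than in Non (median -0.72, 17 at that p, 0 called). Their summed level was 1287 CPM in Non. It was 727, 1057 and 625 CPM in FV, RP and TV without ibuprofen and 1044, 1558 and 1403 CPM with it. The RNA of these markers moved with most of the members, and what part a change in the number of T cells has in either was not tested.

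After the subtraction, Lck spanned 0.27 on the log2 scale across the 7 libraries, where it had spanned 1.21 before. Themis went from 1.55 to 0.33, Zap70 from 1.502 to 0.41, Kcnn4 from 1.29 to 0.41, Camk4 from 1.61 to 0.52 and Trat1 from 1.23 to 0.56. These 6 genes thus spanned less of a range relative to the T cell markers than in CPM. Lat changed little in span, from 0.78 to 0.70, and Prkcq and Lcp2 spanned more after the subtraction than before, 1.08 against 0.44 and 1.68 against 0.35.

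The ibuprofen difference relative to the T cell markers was -0.14 ± 0.11 for Lck (SD over 3 routes), -0.04 ± 0.19 for Zap70 and -0.06 ± 0.07 for Themis. Kcnn4 was at 0.20 ± 0.13, with route values of 0.31, 0.22 and 0.05, Trat1 at 0.11 ± 0.38 and Camk4 at 0.02 ± 0.24. Lat was at -0.25 ± 0.29, Prkcq at -0.42 ± 0.51 and Lcp2 at -0.81 ± 0.51, with -0.44, -0.61 and -1.39 by route. Kcnn4 was the only member above the T cell markers in all 3 routes, and Lck, Lat, Themis, Prkcq and Lcp2 were below them in all 3. Several of these values were near 0. By route, Themis was at -0.14, -0.03 and -0.02 and Lck at -0.27, -0.08 and -0.07. The Kcnn4 value in TV rested on 221 counts without and 734 with ibuprofen. Counting error was not computed for values relative to the markers. Relative to Non, Lcp2 stood 0.85, 0.21 and 1.29 above the markers in FV, RP and TV without ibuprofen, and Prkcq 0.48, -0.01 and 0.96.

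**Figure D4:**
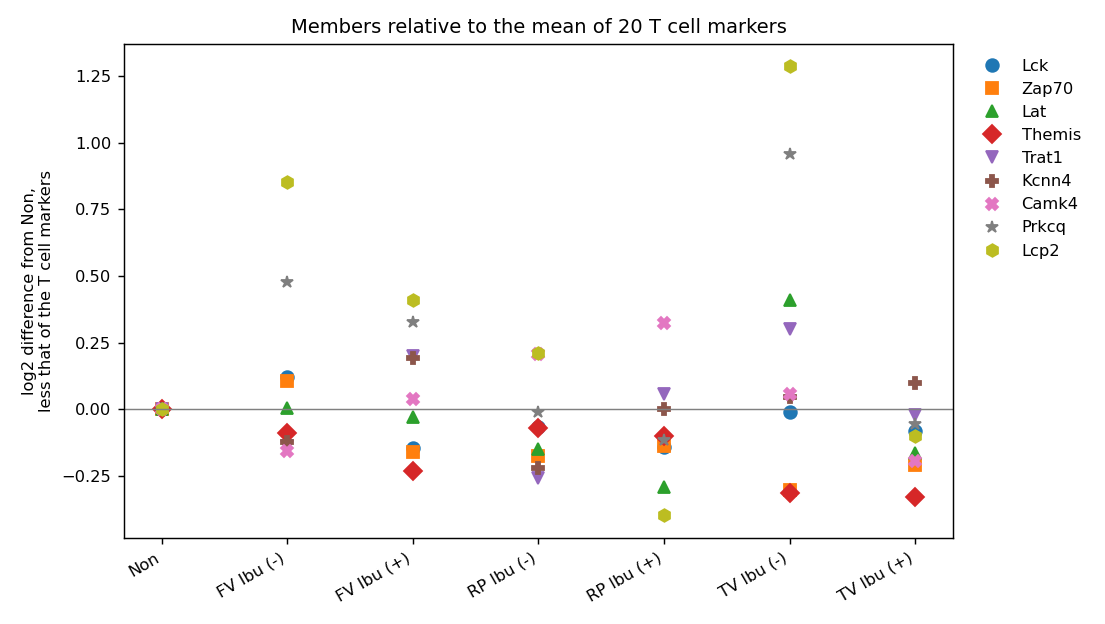
Difference in log2 CPM from Non less the mean difference of 20 T cell markers (vertical axis) for the 9 genes (symbols) in the 7 libraries (horizontal axis). Lck, Zap70, Themis, Kcnn4, Camk4 and Trat1 lie between -0.33 and 0.33, Lat reaches 0.41 in TV Ibu (-), and Lcp2 and Prkcq reach 1.29 and 0.96 there.

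Lcp2, Lat and Prkcq are also platelet genes, and Lcp2 is a myeloid gene. The summed level of 15 platelet markers, none of them at 0 in any library, was 3703, 2075 and 7079 CPM in FV, RP and TV without ibuprofen, 5892, 1362 and 2652 CPM with it, and 1679 CPM in Non. That of 14 classical monocyte markers, likewise none at 0, was 8335, 3154 and 6408 CPM without ibuprofen, 6409.5, 2242 and 3344 CPM with it, and 3344 CPM in Non. Lcp2 was highest in TV Ibu (-) and FV Ibu (+), the libraries with the most platelet marker RNA, and lowest in RP Ibu (+), which had the least platelet and the least monocyte marker RNA. FV Ibu (-), which had the most monocyte marker RNA, was below TV Ibu (-) and FV Ibu (+) in Lcp2, at 64.8 CPM. The 15 neutrophil markers, of another myeloid cell, summed to 1371, 323 and 553 CPM in FV, RP and TV without ibuprofen. With ibuprofen they summed to 555, 375 and 227 CPM, and in Non to 283 CPM. Lat and Prkcq did not follow the order of platelet marker RNA. Lat was at 40.2 CPM, its second lowest level, in TV Ibu (-) and Prkcq at 65.6 CPM, its highest, in RP Ibu (+). The part of platelets, monocytes and neutrophils in the Lcp2, Lat and Prkcq levels was not tested.

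Kcnn4 is also a red cell gene, and B cell markers moved too. The median of 15 erythroid markers differed from Non by -0.39, -0.25 and 1.15 on the log2 scale in FV, RP and TV without ibuprofen. With ibuprofen it differed by -0.71, 0.19 and 0.49. The library with the most erythroid marker RNA, TV Ibu (-), had the lowest Kcnn4 level, within counting error of FV Ibu (-). The next in erythroid marker RNA, TV Ibu (+) and RP Ibu (+), had the highest Kcnn4 levels, 16.1 and 16.6 CPM. The 14 B cell markers summed to 1516 CPM in Non, to 603, 1840.2 and 974 CPM without ibuprofen and to 969.7, 1777 and 1474 CPM with it. With ibuprofen 13 of these 14 were higher (median 0.41), and against Non all 14 were lower (median -0.55), with 0 called by edgeR in either comparison and 5 and 4 at an unadjusted p under 0.05. The part of these cells in the levels of the members was not tested.

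Markers of T cell subsets differed in their course. Cd4, the helper coreceptor, was at 75.3 CPM in Non, at 35.8, 54.3 and 39.1 CPM in FV, RP and TV without ibuprofen and at 56.8, 83.5 and 74.8 CPM with it. Cd8a, a chain of the cytotoxic coreceptor, named here after its values were seen, was at 28.4 CPM in Non, at 23.5, 34.0 and 11.1 CPM without ibuprofen and at 24.4, 35.5 and 32.2 CPM with it. In FV and in RP the levels of Cd8a without and with ibuprofen were close while those of Cd4 differed more, and in TV both differed. The 14 NK and cytotoxic markers, of cells that also use Lck, Zap70 and Lat, summed to 308, 273 and 206 CPM in FV, RP and TV without ibuprofen and to 344, 266 and 311 CPM with it. The part of these subsets in the levels of the members was not tested.

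Other genes of the pathway were taken from 7 lists, in which 0 genes were called in edgeR for ibuprofen or for collection. Of the 7 antigen receptor chains, all 7 were higher with ibuprofen at an unadjusted p under 0.05 (median 0.75), with Trbc2, a T cell receptor beta constant gene, at 0.79 and Cd3e, a CD3 chain, at 0.75. Against Non the same 7 were lower at that p (median -0.78). Of 9 coreceptor and costimulation genes, 9 were higher with ibuprofen, 6 of them at that p (median 0.60), with Cd4 at 0.72 and Cd6, a CD5-related surface receptor, at 0.85. All 7 receptor chains and 7 of these 9 genes are among the 20 T cell markers.

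The lists downstream of the receptor were mixed. Of 15 kinases and phosphatases, 8 were higher and 7 lower with ibuprofen, and 3 and 1 were so at an unadjusted p under 0.05 (median 0.03). The most abundant of them, the phosphatases Ptprc (CD45) and Ptpn6 (SHP-1), were at -0.09 and -0.07. Of 15 adaptors, 10 were higher and 5 lower, 4 and 1 at that p (median 0.21), with Fyb, an adaptor that binds SLP-76, at -0.16 and Grap2, which encodes Gads, at 0.21. Of 10 genes of the phospholipase, Ras and Vav branch, 7 were higher, 4 of them at that p (median 0.16), with the diacylglycerol kinases Dgka at 0.52 and Dgkz at 0.10.

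Of 8 genes of the protein kinase C and NF-kB branch, 3 were higher and 5 lower with ibuprofen, 2 and 0 at an unadjusted p under 0.05 (median -0.05), with Prkcb, the beta isoform of protein kinase C, at -0.05 and the NF-kB subunit gene Nfkb1 at -0.06. Of 14 genes of the calcium, calcineurin and NFAT branch, 9 were higher and 5 lower, 1 and 0 at that p (median 0.04), with the transcription factor Nfatc3 at 0.14 and the calcium release channel Itpr3 at 0.21. Against Non the medians were -0.63 for coreceptors, -0.15 for kinases and phosphatases, -0.11 for adaptors, -0.14 for the phospholipase branch, -0.02 for the protein kinase C branch and -0.07 for the calcium branch.

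Within those lists, 3 genes with known roles in T cells were named after their values were seen. Ubash3a, a negative regulator of Zap70 signalling, was 0.75 higher with ibuprofen, Skap1, the partner of Fyb, 0.81, and Rasgrp1, the Ras activator of T cells, 0.57. None passed the adjusted threshold in edgeR (adjusted p = 0.374 for each). Their values lay in the range of Lck to Trat1, 0.59 to 0.84 except for Rasgrp1.

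The genes whose course over the 7 libraries was nearest to that of each member were found among 5968 genes by the root mean square difference of centred log2 levels. For Lck these were Tnfrsf26, Ms4a4b and Pik3ip1 (0.06, 0.07 and 0.07). Pik3ip1 was also nearest to Zap70 (0.07), before Thy1 and Cd5 (0.09 and 0.10), and was near to Themis, as was Herc3 (both 0.08). For Trat1 the nearest was Ubash3a (0.11), then St6gal1 and Cd4, for Kcnn4 Trbc2, Ubash3a and Cd3g (0.08, 0.09 and 0.10), and for Camk4 Bcl11b, Cep97 and Gimap9 (0.11, 0.12 and 0.14). The neighbours of Lat were Tubb5, Fam78a and Limd2 (0.04, 0.04 and 0.07). Those of the flat members were genes with a flat course, Rpl19, Fyn and Rpl17 for Prkcq (0.04, 0.05 and 0.05) and Ppp1r21, Ube2g2 and Stard3 for Lcp2 (0.03, 0.04 and 0.04). Among the members themselves, Zap70 and Themis were closest (0.09), then Lck and Zap70 (0.10) and Trat1 and Kcnn4 (0.11), and Camk4 and Lcp2 were furthest apart (0.62). The mean course of the 9 was nearest to Rpl12, Dennd2d, Prps2, Txk, Abhd8, Sigirr, St6gal1, Dnajc9, Clk1 and Fam78a, at 0.04 to 0.08.

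The genes lie apart in the genome, in coordinates of GRCm38.p6. Lck spans 129548344 to 129573641 on chromosome 4 and Zap70 36761798 to 36782821 on chromosome 1. Lat (126363827 to 126369705) and Kcnn4 (24369826 to 24385212) are both on chromosome 7. Themis spans 28668360 to 28883820 on chromosome 10, Trat1 48730774 to 48810547 on chromosome 16, Camk4 32934941 to 33195767 on chromosome 18, Prkcq 11171905 to 11301226 on chromosome 2 and Lcp2 34046928 to 34092281 on chromosome 11. In GENCODE M21, exons of Lck and Lat overlap a microRNA gene on the same strand. Lck shares 25 exon bases with Mir8119, which had 1 to 5 counts per library. Lat shares 75 with Mir7058, which had 14 to 59 counts per library. Exons of Themis, Camk4 and Lcp2 overlap a gene on the opposite strand, up to 6.32% of exon bases for Lcp2, and these 3 genes had 0 counts in all 7 libraries. Use of strand in the counting is not stated in the labels or file headers.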

How the data were processed

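PBMC mRNA of 7 mouse groups, 1 library each, was measured. RNA was purified on columns and made into stranded mRNA libraries, per the labels' protocols. The submitters' processing notes name Trimmomatic 0.38, HISAT2 2.1.0 and mm10 and give no roles. Not given in the sources used here are the counting program, annotation release, strand setting and whether animals were pooled. The authors deposited, for 45777 genes, raw read counts, whole numbers in all columns, per the file headers. The deposited FPKM values, made by the authors, were not used. The deposited TPM values, scaled for length by the authors, gave levels between genes and an alternative scale (log2 of TPM plus 0.1). Of the gene IDs, 45679 matched a GRCm38.p6 gene table.

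Counts were tested with R 4.3.3 and edgeR 4.0.16 (glmQLFit and glmQLFTest, TMM, mean of 1 CPM or more, Benjamini-Hochberg threshold 0.05). Ibuprofen and the routes were tested as additive terms in the 6 collected libraries, and collection against Non in all 7, where the lone Non library is taken to vary as the rest do, each with 2 residual degrees of freedom. A standard error is the log2 difference divided by the square root of F. Single libraries were compared in pairs with no test (prior count 2). Alternatives were DESeq2 1.42.0, limma-voom (limma 3.58.1), DESeq2 size factors, no erythroid markers in the scaling, other filters, other designs and leaving out each library. The steps were tested on simulated data.

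The members and lists were chosen with earlier results of these data known, so counts over them support nothing on their own. Named genes were all members, the 2 most abundant measured genes of each pathway list with any that passed, and the nearest genes by course, predicted genes left out; 1 gene that this rule names is not reported here. Cd8a, Ubash3a, Skap1 and Rasgrp1 were named after their values were seen. Poisson intervals are exact, at 95%, and cover counting error only.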

Additional observations from a re-analysis of the deposited data

Results flagged for a closer look

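Lcp2 took opposite directions in different routes. Its log2 difference with ibuprofen was 0.0731 in FV, -0.0887 in RP and -0.188 in TV. Its log2 difference from Non in the libraries without ibuprofen was 0.0681 in FV, -0.0609 in RP and 0.197 in TV. With 1 library a group these differences between routes were not tested. All neighbouring Lcp2 levels had overlapping Poisson intervals, but TV Ibu (-) is not a neighbour of TV Ibu (+) or Non. Its interval, 68.0 to 73.8 CPM, lay above those of TV Ibu (+), 59.9 to 64.5 CPM, and Non, 59.8 to 63.9 CPM. The FV and RP differences were within counting error.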

How the results depend on the processing

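The edgeR counts of 0 called genes moved with the test. DESeq2 called 110 genes for ibuprofen, 1076 for FV against RP, 158 for TV against RP, 318 for TV against FV and 17 for collection against Non, and limma-voom called 1, 10, 0, 5 and 1. Scaling without the 15 erythroid markers gave 15 genes for FV against RP. Leaving out single libraries gave 0 to 8 genes for ibuprofen, 0 to 676 for FV against RP, 0 to 32 for TV against RP, 0 to 14 for TV against FV and 0 to 3 for collection. The cause was not tested. On the TPM scale 7 members, not 4, were at least 2-fold from Non in TV Ibu (-), and 2, not 0, with ibuprofen in FV, where the median of all genes had shifted too.

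Small route differences changed sign. For TV against FV, Lck was at -0.000157 with limma-voom and Lcp2 at -0.00220 with no filter on low counts. Leaving out single libraries, the TV against FV difference ran from -0.33 to 0.43 for Lck, -0.58 to 0.29 for Zap70, -0.44 to 0.29 for Themis, -0.10 to 0.35 for Kcnn4, -0.0506 to 0.204 for Camk4 and -0.0648 to 0.146 for Lcp2. For Prkcq it ran from -0.0576 to 0.185 in TV against RP and from -0.158 to 0.00846 in FV against RP. No pooled ibuprofen or collection difference of a member changed sign in any alternative run. Over all alternatives, values of single members stayed within their limits 731 times, moved 79 times, changed sign 15 times and newly passed a threshold 3 times. Non could not be left out. Ibuprofen was paired by route; without the route term 0 genes were called and the members ran from -0.09 to 0.92.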
